A study of Mus musculus with 16 samples.

Results

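The genes that carry a cell through G2 and mitosis were followed across 16 RNA-seq libraries from the mouse macrophage line MPI-2, which is alveolar-like and grows in GM-CSF. The 32 genes were chosen by name as known regulators, motors, kinetochore parts and structural proteins of mitosis, and each matched 1 of the 55359 genes in the count files through its Ensembl identifier. All 32 passed the filter on low counts, among 17190 genes tested. Wild-type cells were either exposed to Mycobacterium abscessus, a fast-growing relative of the tubercle bacillus that can persist in macrophages, or left uninfected, and were collected on day 1 or day 5, which gives the groups exposed day 1, uninfected day 1, exposed day 5 and uninfected day 5 with 4 replicates each. All groups shared the genotype, the line and a culture medium that held GM-CSF, serum, penicillin and streptomycin. The bacterial strain, the dose, the share of cells that took up bacteria and any change of antibiotics for the exposure are not stated in the sources used here. The replicates are labelled biological but come from 1 cell line, so p-values measure the spread between its cultures.

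Cells that divide build up a wave of transcripts in G2 and mitosis and lose it on leaving the cycle, and the abundance of these transcripts in a culture is widely read as a sign of proliferation. Cyclins A and B activate the kinase CDK1 to start mitosis, Aurora and Polo-like kinases build the spindle, the kinetochore and its checkpoint hold chromosomes until they are attached, the anaphase-promoting complex then destroys the cyclins, and the central spindle guides the cut between daughter cells. Alveolar macrophages are known for maintaining themselves by local division under GM-CSF, and the MPI line keeps dividing in that cytokine. In RNA from whole cultures, fewer dividing cells and less RNA per dividing cell cannot be told apart.

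Total counts per library lay between 46154875 and 81995629. All 11 macrophage markers and all 10 alveolar macrophage markers examined averaged over 1 CPM in every group, where CPM is the count relative to the library total scaled by trimmed mean of M values. At day 5 the alveolar macrophage markers summed to between 7630 and 9640 CPM in exposed libraries, against 18800 to 26400 CPM in uninfected ones. The general macrophage markers summed to between 13000 and 18600 CPM, against 5850 to 6260 CPM. Single markers moved both ways. Chil3 held most of the alveolar gap, with a mean of 2990 CPM after exposure against 16100 CPM without it. Car4, Siglecf, Marco and Bhlhe41 averaged higher after exposure, and the other alveolar markers lower. Of the general markers, Mrc1 (102 against 375 CPM) and Spi1 (183 against 265 CPM) averaged lower after exposure, and the others higher. Markers of T cells summed to at most 0.233 CPM and markers of B cells to at most 0.466 CPM in any library. Of 5 epithelial markers 1 averaged over 1 CPM, and Epcam had 0 counts in exposed libraries. Fibroblast markers summed to at most 22.5 CPM and endothelial markers to at most 9.13 CPM, and the 4 neutrophil markers, some of which macrophages also express, to between 410 and 885 CPM in exposed day 5 and between 443 and 609 CPM in uninfected day 5 libraries. The part of these markers in the results on mitosis genes was not tested.

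At day 5 every one of the 32 genes was lower in exposed cells. Their summed share of all counts was 0.0779% ± 0.0347 in exposed day 5 cells, against 0.301% ± 0.0382 in uninfected day 5 cells (SD, n = 4 each). By the quasi-likelihood test of edgeR, at an adjusted p under 0.05 (Benjamini-Hochberg, over all genes tested), 32 of 32 were called lower and 0 higher, against 28.4% and 28.6% of all tested genes. All 32 fell by more than 2-fold, against 9.33% of all genes called lower by at least that much. The median log2 fold change was -2.06, against 0.022 over all genes tested, and the 32 values lay between -2.53 and -1.19. Counted from the most reduced of all genes, the members stood between percentiles 1.15 and 7.71. In all 32 the 4 exposed libraries lay below the 4 uninfected libraries, as in 24.2% of all genes. Mitochondrially encoded transcripts took up 0.969% ± 0.201 of counts in exposed day 5 cells, against 1.71% ± 0.126 in uninfected day 5 cells (SD, n = 4 each), and their part in the result was not tested.

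**Figure D1:**
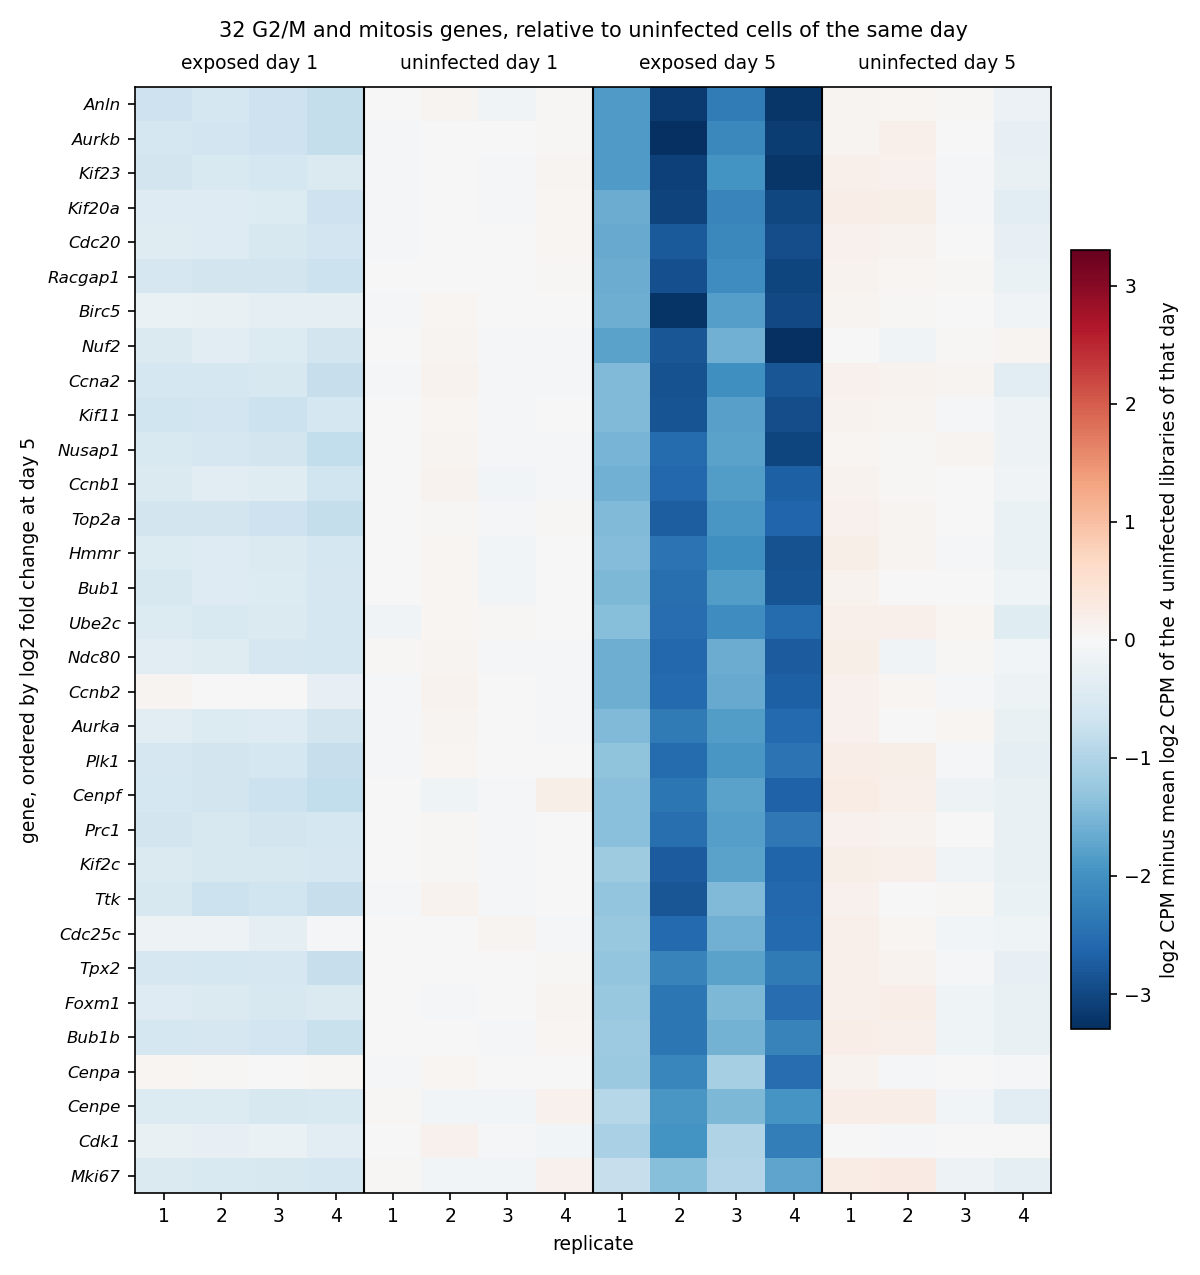
Level of each of the 32 genes in each of the 16 libraries, as log2 CPM minus the mean log2 CPM of the 4 uninfected libraries of the same day. Columns are replicates 1 to 4 of each group and rows are genes ordered by their log2 fold change at day 5. Exposed day 5 libraries are the darkest blue throughout, and replicates 2 and 4 are darker than replicates 1 and 3.

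All 5 genes of the central spindle and of cytokinesis fell, with a median log2 fold change of -2.36, the lowest of the 6 roles. Anln, which encodes anillin, the scaffold of the contractile ring, had 27.1, 11.2, 19.99 and 10.7 CPM in exposed day 5 replicates 1 to 4, against 106, 104, 102 and 86.9 CPM in uninfected day 5 cells. The exposed libraries all stood far below the lowest uninfected one, and the log2 fold change of -2.53 ± 0.22 (SE, adjusted p = 4.88e-08) corresponds to a 5.78-fold lower level, the first rank of the 32. Values in brackets after a gene are likewise log2 fold changes with their standard error. For each gene that error pools the spread of all 4 groups. The members spread the most in exposed day 5 libraries, with an SD of log2 CPM of 0.654 for Anln, against 0.131 in uninfected day 5 cells. Standard errors and p-values of comparisons with exposed day 5 libraries can therefore understate the spread between those cultures. Kif23, a kinesin that forms the centralspindlin complex with the product of Racgap1, had 21.9, 9.46, 20.1 and 8.64 CPM, against 89.2, 87.9, 76.2 and 67.0 CPM in uninfected cells (-2.41 ± 0.23, adjusted p = 1.75e-07). Kif20a, the kinesin that brings Aurora B to the central spindle, had 24.99, 9.304, 17.04 and 9.59 CPM in exposed day 5 cells, against 90.8, 87.9, 73.7 and 60.7 CPM in uninfected cells (-2.36 ± 0.24). In both kinesins, as in Anln, exposed replicates 1 and 3 lay above exposed replicates 2 and 4. Racgap1, the other subunit of centralspindlin, fell by 2.29 ± 0.22 and Prc1, the bundler of central spindle microtubules, by 1.95 ± 0.17 on the log2 scale.

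Both members of the machinery of mitotic exit fell. Cdc20, the activator of the anaphase-promoting complex and the target of the spindle checkpoint, had 8.97, 4.15, 6.55 and 3.75 CPM in exposed day 5 libraries, against 31.5, 31.01, 28.9 and 23.6 CPM in uninfected ones. The log2 fold change was -2.29 ± 0.199 (adjusted p = 3.56e-08), a 4.902-fold lower level. Ube2c, the ubiquitin-conjugating enzyme of that complex, fell by 2.06 ± 0.198 on the log2 scale.

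Of the regulators of entry, all 7 were lower, with a median log2 fold change of -1.99. Ccnb1, cyclin B1, had 40.4, 20.1, 33.6 and 18.6 CPM in exposed day 5 cells, against 129.7, 124, 119 and 111 CPM in uninfected cells (-2.10 ± 0.19, adjusted p = 4.56e-08). Its partner kinase Cdk1 had 67.2, 36.4, 71.1 and 29.02 CPM, against 142, 138, 143 and 143 CPM in uninfected cells (-1.47 ± 0.205, adjusted p = 1.08e-05). The uninfected day 5 libraries were tight for Cdk1, with a mean of 142 ± 2.48 CPM, and the exposed ones were not, with a mean of 50.9 ± 21.3 CPM (SD, n = 4 each). Foxm1, the forkhead factor that switches on many G2/M genes, had 37.5, 16.9, 31.6 and 15.5 CPM in exposed cells, against 100.2, 104, 80.2 and 74.7 CPM in uninfected cells (-1.82 ± 0.22, adjusted p = 1.92e-06). Ccna2, cyclin A2, fell by 2.18 ± 0.24, Ccnb2, cyclin B2, by 2.06 ± 0.19, Plk1, Polo-like kinase 1, by 1.99 ± 0.201 and Cdc25c, a phosphatase that activates CDK1, by 1.87 ± 0.21 on the log2 scale.

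The 10 genes of the checkpoint, kinetochore and centromere had a median log2 fold change of -2.02 and covered a wide range. Aurkb, the kinase of the chromosomal passenger complex, had 20.1, 7.57, 16.8 and 8.43 CPM in exposed day 5 cells, against 78.5, 82.5, 73.5 and 60.5 CPM in uninfected cells (-2.48 ± 0.23, adjusted p = 1.3e-07). Birc5, survivin, a subunit of the same complex, fell to 27.01, 8.75, 23.3 and 10.5 CPM in exposed cells, against 87.8, 83.9, 80.7 and 75.4 CPM in uninfected cells (-2.24 ± 0.26, adjusted p = 1.23e-06). Exposed replicates 2 and 4 held less than replicates 1 and 3 for both genes. Nuf2, a subunit of the outer kinetochore complex that binds microtubules, had 16.6, 8.05, 18.96 and 5.79 CPM, against 56.2, 52.9, 58.3 and 60.6 CPM in uninfected cells (-2.21 ± 0.26), and its partner Ndc80 fell by 2.06 ± 0.195. Ttk, the checkpoint kinase MPS1, had 7.83, 2.75, 7.08 and 3.21 CPM in exposed cells, against 21.5, 19.5, 19.96 and 16.7 CPM in uninfected cells (-1.89 ± 0.24). The smallest fall of the role was that of Cenpe, a kinetochore kinesin, with 25.1, 12.6, 17.1 and 12.4 CPM in exposed cells, against 56.02, 55.5, 44.7 and 37.5 CPM in uninfected cells (-1.52 ± 0.18, adjusted p = 1.73e-06). Cenpa, the histone H3 variant that marks centromeres, had 32.9, 17.2, 36.04 and 13.4 CPM, against 82.3, 75.1, 76.5 and 72.8 CPM in uninfected cells (-1.62 ± 0.22). The checkpoint genes Bub1 and Bub1b fell by 2.07 ± 0.202 and 1.77 ± 0.19, and Cenpf, a large kinetochore protein, by 1.98 ± 0.21 on the log2 scale.

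The 6 genes of spindle kinases and assembly lay closer together, between -2.12 and -1.86 on the log2 scale. Tpx2, which activates Aurora A on the spindle, had 45.2, 24.02, 32.6 and 22.1 CPM in exposed day 5 cells, against 126, 122, 109.5 and 92.2 CPM in uninfected cells (-1.86 ± 0.17, adjusted p = 3.51e-08). The other members were Kif11, the motor that pushes spindle poles apart (-2.12 ± 0.24), Nusap1, a microtubule bundler (-2.105 ± 0.22), Hmmr, a microtubule-binding protein of the spindle (-2.09 ± 0.21), Aurka, the Aurora A kinase (-1.99 ± 0.17), and Kif2c, a kinesin that shortens microtubules (-1.95 ± 0.25). Both structural genes of chromosomes fell, by very different amounts. Top2a, the topoisomerase that untangles sister chromatids, had 142, 58.1, 101 and 62.6 CPM, against 423, 410.4, 385 and 332 CPM in uninfected cells (-2.09 ± 0.21, a 4.27-fold lower level). Mki67, whose protein Ki-67 coats mitotic chromosomes and is the usual stain for proliferation, had 239, 152, 207 and 122 CPM in exposed cells, against 478, 484, 360.5 and 321 CPM in uninfected cells. It fell by 1.19 ± 0.17 on the log2 scale (adjusted p = 6.79e-06, a 2.28-fold lower level), the smallest fall of the 32.

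**Figure D2:**
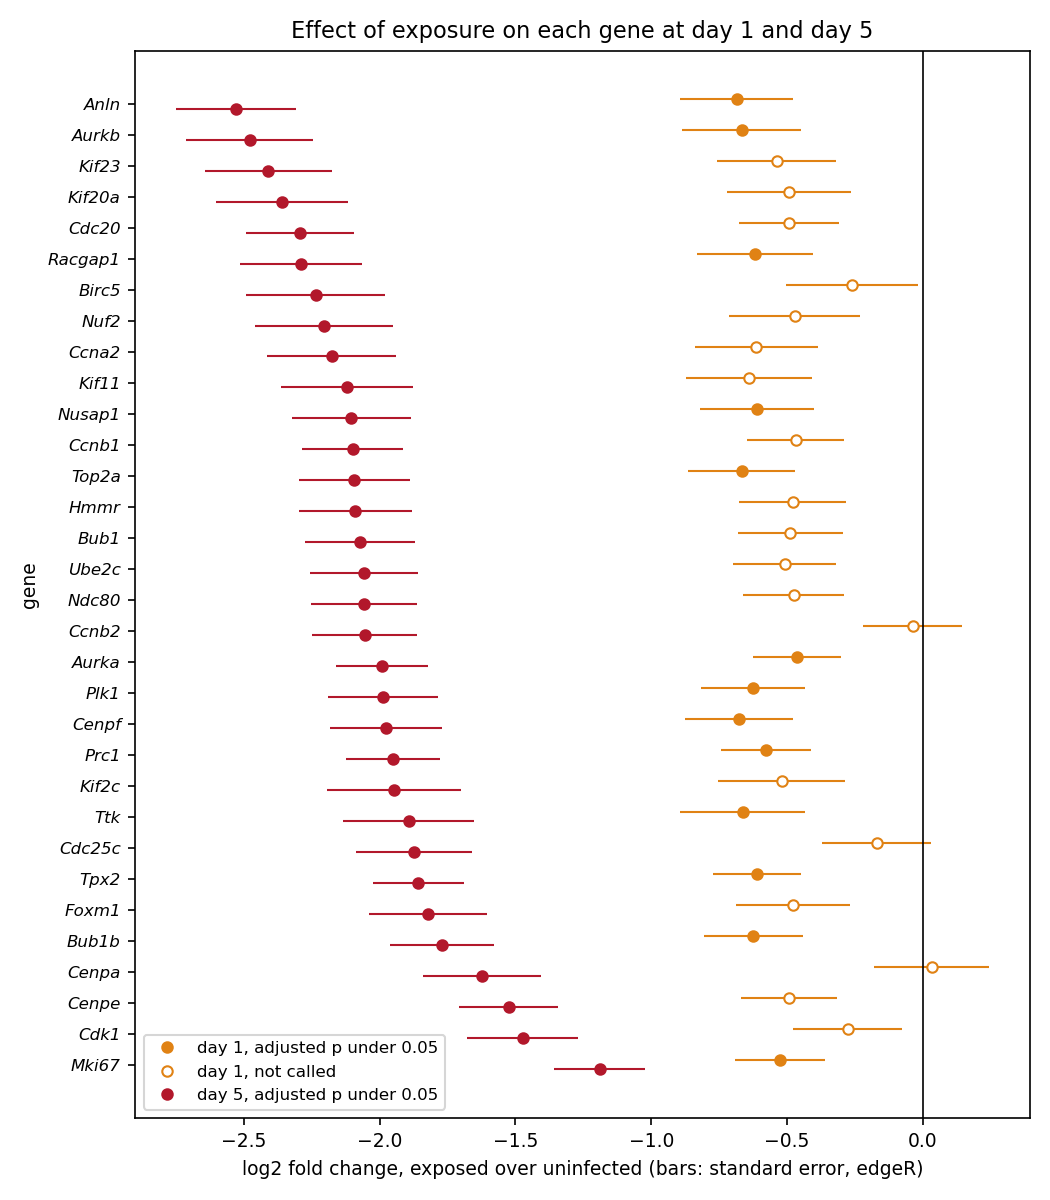
Log2 fold change of each gene, exposed over uninfected, at day 1 (orange) and day 5 (red), with standard errors derived from the F statistic of edgeR's test. Filled points were called at an adjusted p under 0.05. Day 5 values lie between -2.53 and -1.19, and day 1 values between -0.69 and 0.03.

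The members moved together at day 5. The DNA around their transcription starts often holds a known pair of short elements, whose part in the fall was not tested. The cell cycle genes homology region (CHR, searched here as TTTGAA or TTCGAA) is bound by the MuvB complexes that repress G2/M genes outside the cycle and activate them within it, and the CCAAT box (searched as CCAAT) is bound by the activator NF-Y. Windows from 250 bases before to 50 bases after the start, taken from RefSeq on GRCm38.p6, were used for 26 of the 32 genes, all but Ccna2, Cdc25c, Aurkb, Kif20a, Tpx2 and Foxm1. On either strand, and with overlapping matches counted, a CHR was found in 21 of the 26 (80.8%), against 21.7% of 27025 genes with a window, and a CCAAT box in 20 (76.9%), against 41.1%. Both were found in 18 of the 26 (69.2%), against 8.61% of all genes, with matches in the 50 bases past the start included. In 18 of the 26 (69.2%) a CHR began within 40 bases of the start on either side, against 5.2% of all genes. At least 2 CCAAT boxes were found in 13 (50%), against 13.3% of all. An E2F site, searched as TTTCGCGC, TTTGGCGC or TTTCCCGC on either strand, was found in 1 of the 26 (3.85%), in Cdk1, against 2.12% of all genes. A match describes the letters in the window and is not a measured binding site.

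The 150 bases before the start are shown for 8 genes, among them those with the largest and the smallest fall at day 5, with CHR and CCAAT matches on either strand in capitals (ATTGG and TTCAAA are the reverse strand of CCAAT and TTTGAA). At day 5 Anln fell the most, Cdc20 was among the 5 largest falls, Top2a and Ube2c lay near the median of the members, and Cdk1 and Mki67 had the smallest falls. Ccnb2 and Cenpa had day 1 values near 0.
Anln, chr9:22389207-22389356, minus strand: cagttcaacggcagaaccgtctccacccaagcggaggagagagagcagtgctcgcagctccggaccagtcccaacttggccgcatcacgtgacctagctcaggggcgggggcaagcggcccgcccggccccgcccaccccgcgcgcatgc
Cdc20, chr4:118437344-118437493, minus strand: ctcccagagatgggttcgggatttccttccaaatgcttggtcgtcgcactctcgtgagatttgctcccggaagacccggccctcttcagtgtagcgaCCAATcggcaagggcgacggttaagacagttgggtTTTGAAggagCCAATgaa
Top2a, chr11:99024190-99024339, minus strand: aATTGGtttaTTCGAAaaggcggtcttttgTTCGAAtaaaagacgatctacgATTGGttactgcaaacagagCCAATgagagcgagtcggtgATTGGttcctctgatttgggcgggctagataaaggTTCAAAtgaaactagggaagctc
Ube2c, chr2:164769779-164769928, plus strand: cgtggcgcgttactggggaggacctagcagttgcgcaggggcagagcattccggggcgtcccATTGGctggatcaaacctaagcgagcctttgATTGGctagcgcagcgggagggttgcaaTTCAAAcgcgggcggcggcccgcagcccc
Cdk1, chr10:69352913-69353062, minus strand: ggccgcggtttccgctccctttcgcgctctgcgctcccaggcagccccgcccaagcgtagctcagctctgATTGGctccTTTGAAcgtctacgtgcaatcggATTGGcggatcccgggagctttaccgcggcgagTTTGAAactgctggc
Mki67, chr7:135716380-135716529, minus strand: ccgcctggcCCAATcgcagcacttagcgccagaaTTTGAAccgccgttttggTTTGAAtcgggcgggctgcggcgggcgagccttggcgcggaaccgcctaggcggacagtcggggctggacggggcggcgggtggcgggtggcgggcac
Ccnb2, chr9:70421555-70421704, minus strand: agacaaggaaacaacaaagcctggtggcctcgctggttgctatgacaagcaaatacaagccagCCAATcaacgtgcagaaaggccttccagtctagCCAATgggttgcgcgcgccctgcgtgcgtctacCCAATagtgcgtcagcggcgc
Cenpa, chr5:30666736-30666885, plus strand: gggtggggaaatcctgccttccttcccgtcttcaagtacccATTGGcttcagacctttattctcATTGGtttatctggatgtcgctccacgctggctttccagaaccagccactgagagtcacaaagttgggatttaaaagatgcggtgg
Anln has no match in the stretch shown, and its CHR matches at 22 and 29 lie past the start. In Cdc20 a CHR lies at -18 between CCAAT boxes at -53 and -8, counted from the start to the first base of the match. Cdk1 has a CHR at -71 and another at -15, and reverse-strand CCAAT boxes at -80 and -48 within the stretch shown. In Mki67 CHR matches lie at -116 and -98, farther from the start, after a CCAAT box at -141. Ccnb2 has CCAAT boxes at -87, -54 and -21, and its CHR matches at -167 and 5 lie outside the stretch. Cenpa has reverse-strand CCAAT boxes at -109 and -86, and its CHR at 17 lies past the start.

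The 4 exposed day 5 libraries differed widely in these genes, and the genes moved together. All 32 members lay above their group mean in replicates 1 and 3 and below it in replicates 2 and 4, a pattern held by 18.3% of the 16854 genes with a count in every library. Relative to uninfected day 5 cells, the median shift of the members was -1.45 in replicate 1, -2.55 in replicate 2, -1.80 in replicate 3 and -2.67 in replicate 4, on the log2 scale. Replicate 1 was the highest of the 4 libraries for 29 members and replicate 3 for 3, while replicate 4 was the lowest for 21 and replicate 2 for 11. The share of all counts taken by the 32 genes was 0.116%, 0.0485%, 0.0982% and 0.0486% in exposed replicates 1 to 4, against 0.335%, 0.329%, 0.288% and 0.253% in uninfected replicates 1 to 4. Every exposed library was thus below every uninfected one, the highest exposed share included. Replicates 2 and 3 carry another series of library codes than the other 14 libraries. They fall on different sides of this pattern. With both left out all 32 genes were still called lower, against 27.4% of all genes, with a median of -1.95. The part of the code series was not tested. With each exposed day 5 library left out in turn the median lay between -2.33 (without replicate 1) and -1.89 (without replicate 4). All 32 were called lower each time, against 26.5% to 28.9% of all genes.

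**Figure D3:**
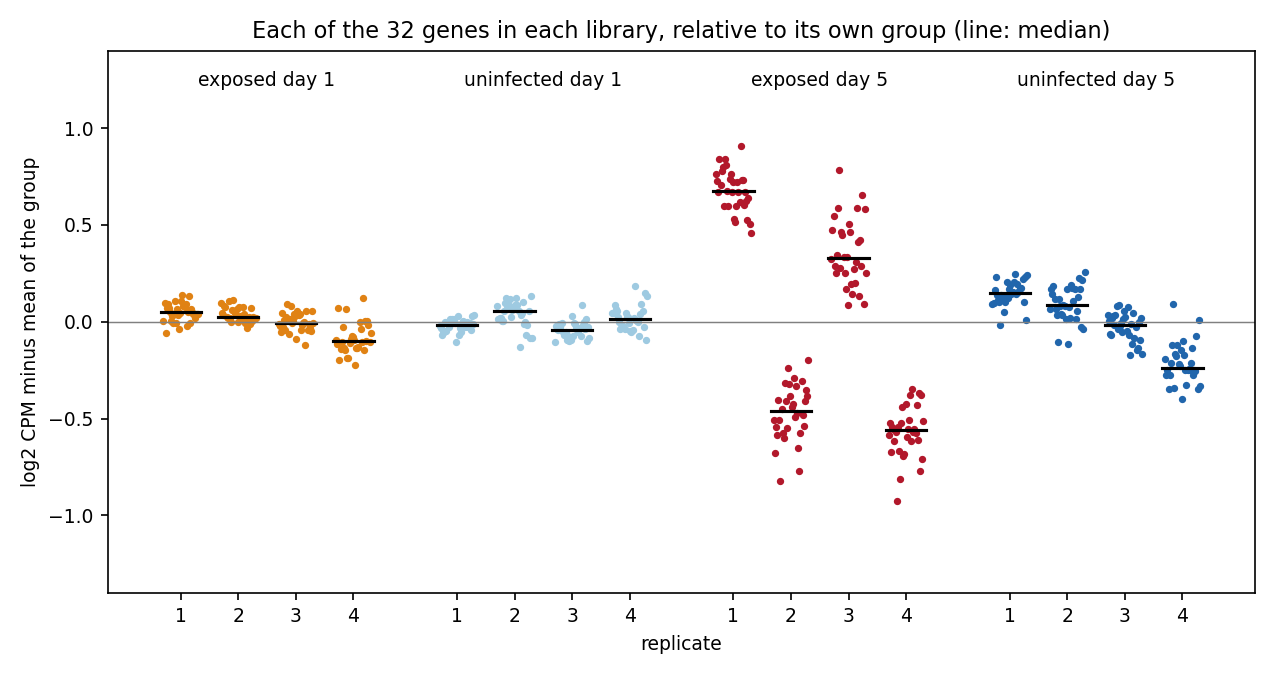
Log2 CPM of each of the 32 genes minus its group mean, for replicates 1 to 4 of each group (points: genes; line: median over genes). In exposed day 5 all points of replicates 1 and 3 lie above 0 and all points of replicates 2 and 4 below it, whereas the medians of the other 3 groups stay between -0.24 and 0.15.

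Over the 4 exposed day 5 libraries the standard deviation of log2 CPM had a median of 0.628 over the members, against 0.299 over all tested genes, which puts it at percentile 81.6. In uninfected day 5 cells the members' median was 0.175, against 0.148 over all genes. At day 1 the members varied less than the median of all tested genes, with a median of 0.079 in exposed cells, against 0.144 over all genes, and 0.067 in uninfected cells, against 0.113 over all genes. Genes were not matched for level in these comparisons, and the part of level was not tested. The widest spread in exposed day 5 cells was that of Nuf2 (0.821), Birc5 (0.813) and Ttk (0.767), and the narrowest that of Mki67 (0.438), Tpx2 (0.469) and Cenpe (0.479). Across the 32 genes, members that fell more also tended to spread more (Pearson's r = -0.459, Spearman's rho = -0.465 between the log2 fold change at day 5 and the SD), but both measures come from the same 4 libraries.

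**Figure D4:**
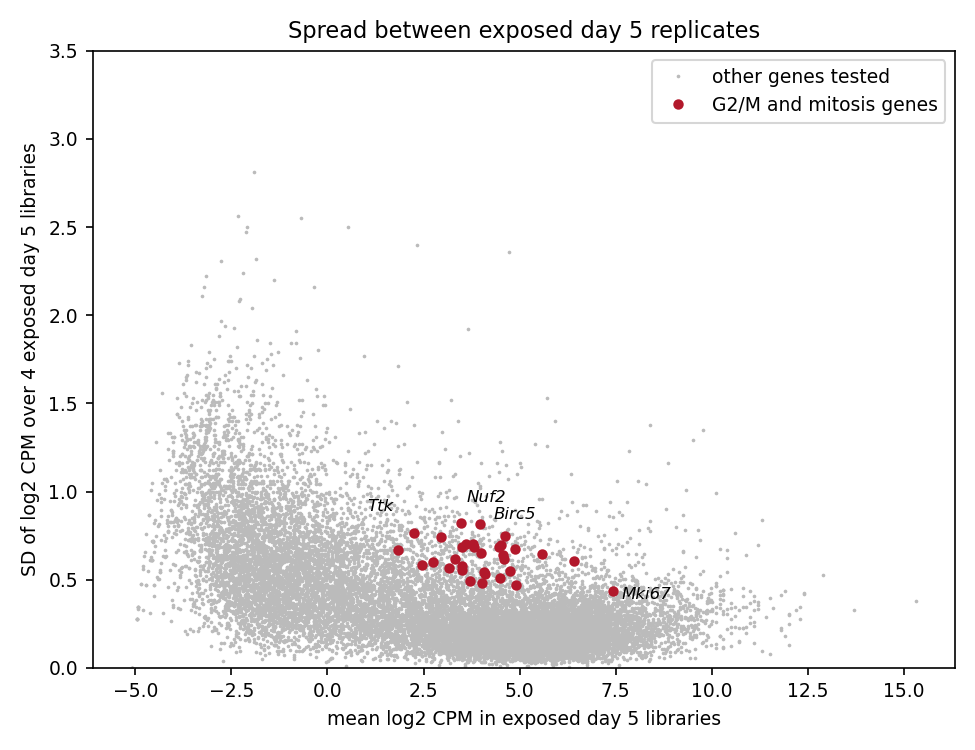
Standard deviation of log2 CPM over the 4 exposed day 5 libraries against the mean log2 CPM in them, for all tested genes (grey) and the 32 members (red). The members lie between 0.438 and 0.821, and the median over all tested genes is 0.299.

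Cdkn1a, which encodes the CDK inhibitor p21, ran the other way among the same libraries, with 211, 371, 186 and 327 CPM in exposed day 5 replicates 1 to 4, against 305, 310.3, 307 and 277 CPM in uninfected day 5 cells. Replicates 2 and 4, the lowest in mitosis genes, were the highest in Cdkn1a, a pattern shared by 18% of the 16854 genes. Cdkn1b, which encodes the CDK inhibitor p27, did not show it, with 88.4, 109.9, 107 and 89.2 CPM in exposed day 5 cells, against 102, 104, 109 and 121 CPM in uninfected day 5 cells. As a group the exposed cells did not pass the test for Cdkn1a at day 5 (-0.13 ± 0.15, adjusted p = 0.484). Mybl2, the MuvB partner B-MYB that activates G2/M genes, had 16.8, 5.79, 13.6 and 7.25 CPM in exposed cells, against 47.4, 51.2, 45.6 and 39.4 CPM in uninfected cells (-2.08 ± 0.23, adjusted p = 9.99e-07), and replicates 1 and 3 lay above replicates 2 and 4 as in the members.

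At day 1 the members were also lower in exposed cells, by less, and the number called depended on the fit. The median log2 fold change of the 32 genes was -0.51, against 0.027 over all genes, and 31 of 32 values were below 0. edgeR's quasi-likelihood test called 13 lower, against 10.5% of all genes, and 0 higher, against 13.4%. DESeq2 called 24 lower, against 14.4% of all genes, and 0 higher. At an unadjusted p under 0.05 edgeR gave 26 lower and 0 higher. The share of all genes at that unadjusted threshold was not computed, here or below. The 4 exposed libraries lay below the 4 uninfected ones in 29 of the 32, as they did in 19.7% of all genes. In the fit to the 8 day 1 libraries alone, which leaves out the widely spread exposed day 5 libraries, 29 of 32 were called lower, against 21.3% of all genes in that fit. In the fit of all groups the count was 26 without exposed day 5 replicate 1, 21 without replicate 2, 12 without replicate 3 and 25 without replicate 4, against 11.2%, 12.6%, 14.5% and 10.9% of all genes. It lay between 2 and 7 with any 1 of the 8 day 1 libraries left out, against 6.93% to 8.14% of all genes. The lowest count came without exposed day 1 replicate 4 or uninfected day 1 replicate 4. The count was 0 in replicates 1 and 2 alone and 0 in replicates 3 and 4 alone, against 2.33% and 0.914% of all genes. There edgeR gave 1 and 18 lower at an unadjusted p under 0.05, and the medians were -0.50 and -0.56. The marker sums also separated at day 1. Macrophage markers summed to between 8420 and 9140 CPM in exposed libraries, against 5260 to 5490 CPM in uninfected ones. Alveolar macrophage markers summed to between 10600 and 13100 CPM, against 15600 to 17200 CPM, and neutrophil markers to between 761 and 1050 CPM, against 298 to 389 CPM. Single markers again moved both ways. Chil3 averaged 5820 CPM after exposure against 10200 CPM without it, while Siglecf, Marco, Fabp4 and Bhlhe41 averaged higher after exposure. The neutrophil sum was mostly S100a8 (872 against 338 CPM), and S100a9 averaged lower (5.68 against 7.01 CPM). Cd68, Adgre1 and Spi1 averaged lower among macrophage markers. The part of these markers was not tested.

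Anln again led, with 70.1, 74.7, 69.4 and 65.5 CPM in exposed day 1 replicates 1 to 4, against 111, 119, 105 and 116 CPM in uninfected day 1 cells (-0.69 ± 0.21, adjusted p = 0.0242). Cenpf had 42.9, 42.4, 38.95 and 36.7 CPM, against 63.8, 58.5, 62.1 and 72.8 CPM in uninfected cells (-0.68 ± 0.199, adjusted p = 0.0209), and Top2a had 314, 312, 299 and 278 CPM, against 478, 486, 454 and 492 CPM (-0.67 ± 0.198, adjusted p = 0.0214). In all 3 genes the exposed libraries were separate from the uninfected ones. Mki67 had 459, 452, 445 and 429 CPM, against 655, 604, 605 and 703 CPM in uninfected cells (-0.52 ± 0.17, adjusted p = 0.0276), a fall close to the median of the list. The other genes called lower were Aurkb, Plk1, Bub1b, Racgap1, Nusap1, Tpx2, Prc1, Ttk and Aurka, with log2 fold changes between -0.67 and -0.46.

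At the other end, 3 genes had day 1 libraries that overlapped. Cenpa had 79.5, 78.8, 76.8 and 78.8 CPM in exposed day 1 cells, against 74.4, 79.7, 77.3 and 75.3 CPM in uninfected day 1 cells (0.03 ± 0.21, adjusted p = 0.932). Ccnb2 had 38.4, 35.5, 36.1 and 29.8 CPM, against 34.2, 39.1, 35.6 and 34.6 CPM (-0.04 ± 0.18, adjusted p = 0.911), and Cdc25c had 15.7, 15.7, 14.5 and 17.1 CPM, against 17.6, 17.5, 18.8 and 16.8 CPM (-0.17 ± 0.20, adjusted p = 0.582). The ratio of Ccnb2 to Ccnb1 CPM was 0.352, 0.300, 0.312 and 0.310 in exposed day 1 replicates 1 to 4, against 0.224, 0.238, 0.251 and 0.234 in uninfected day 1 libraries, which do not overlap. At day 5 that ratio was 0.337 ± 0.0217 in exposed and 0.327 ± 0.0104 in uninfected cells (SD, n = 4 each). The ratio of Cenpa to Top2a CPM was 0.262 ± 0.0146 in exposed and 0.161 ± 0.00777 in uninfected day 1 cells, and 0.275 ± 0.0647 in exposed and 0.199 ± 0.0153 in uninfected day 5 cells (SD, n = 4 each). Both ratios were chosen after the values were seen and are given without a test.

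**Figure D5:**
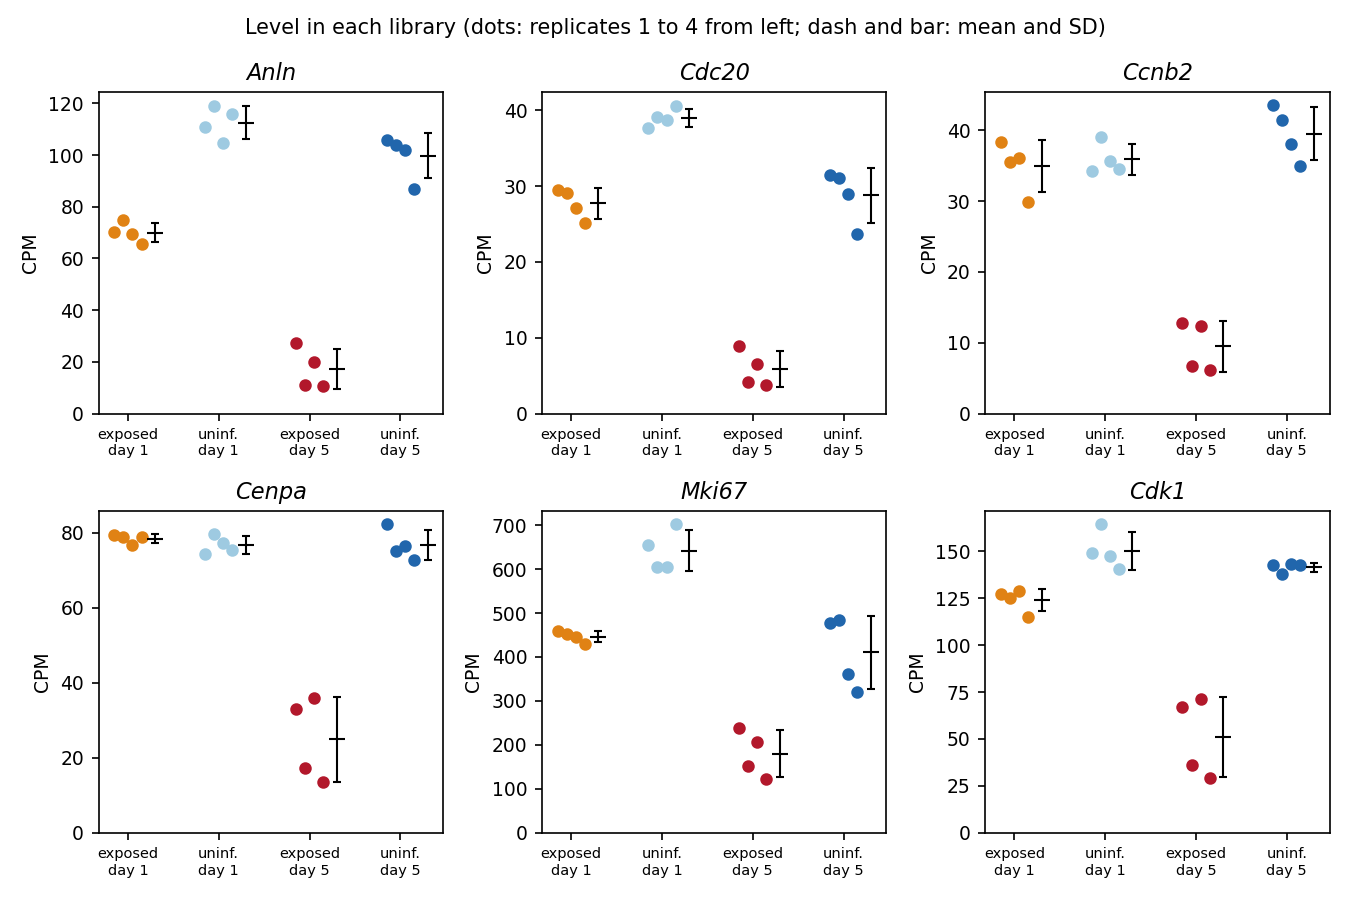
CPM in each library for 6 genes, with the mean and SD of each group beside the 4 replicates. Ccnb2 and Cenpa overlap between exposed and uninfected cells at day 1, Anln, Cdc20, Mki67 and Cdk1 do not, and all 6 are lower in exposed cells at day 5.

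The exposure effect grew between the days in every member. The interaction, which is the day 5 effect minus the day 1 effect, was called below 0 for all 32, against 19.5% of all genes, and above 0 for none of them, against 16.4%, with a median of -1.56 over the members and -0.040 over all genes. It was largest for Ccnb2 (-2.02 ± 0.26, adjusted p = 2.1e-05), Birc5 (-1.98 ± 0.35, adjusted p = 0.000377) and Kif23 (-1.87 ± 0.32, adjusted p = 0.000251), and smallest for Mki67 (-0.67 ± 0.23, adjusted p = 0.0332), Cenpe (-1.03 ± 0.25) and Bub1b (-1.15 ± 0.26, adjusted p = 0.00273). Ccnb2 and Birc5 had small day 1 values (-0.04 ± 0.18 and -0.26 ± 0.24, neither called) and day 5 values of -2.06 ± 0.19 and -2.24 ± 0.26. Bub1b had 26.1, 11.6, 20.6 and 13.1 CPM in exposed and 70.3, 67.8, 54.9 and 50.7 CPM in uninfected day 5 libraries, and 57.4, 58.6, 55.3 and 52.1 CPM in exposed and 85.8, 85.2, 83.8 and 89.4 CPM in uninfected day 1 libraries. The order of the members carried over weakly from day 1 to day 5 (Pearson's r = 0.295, Spearman's rho = 0.256 over 32 genes, between comparisons that share no library). In replicates 1 and 2 alone 18 of the 32 were called below 0, against 9.6% of all genes. The Mki67 call was lost in 14 of the 25 alternative fits, with an adjusted p of up to 0.375 in replicates 3 and 4 alone.

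Uninfected cells had slightly lower levels of the members at day 5 than at day 1, with few calls. In uninfected cells, day 5 against day 1, the median log2 difference of the members was -0.35, against 0.022 over all genes. By edgeR 2 were called lower, Mki67 (-0.64 ± 0.17, adjusted p = 0.0105) and Cenpe (-0.59 ± 0.18, adjusted p = 0.0269), against 8.91% of all genes. Called higher were 0, against 10.8%. DESeq2 called 7 lower, against 11.6% of all genes, and 0 higher. At an unadjusted p under 0.05 edgeR gave 12 lower and 0 higher, with no share of all genes computed at that threshold. Mki67 averaged 411 ± 82.5 CPM in uninfected day 5 and 642 ± 47.1 CPM in uninfected day 1 cells (SD, n = 4 each). The 4 day 5 libraries lay below the 4 day 1 libraries in 26 of the 32 genes, as in 17.9% of all genes, and a fit to the 8 uninfected libraries alone called 27 lower, against 19.3% of all genes. In the fit of all groups without exposed day 5 replicate 1, 2, 3 or 4 the count was 12, 7, 2 or 9, against 9.47%, 10.8%, 12.7% or 9.3% of all genes. Without uninfected day 1 replicate 1 or 4 or uninfected day 5 replicate 3 or 4 it was 1, against 5.8%, 5.38%, 5.82% or 4.99% of all genes. Uninfected day 5 replicate 4 was the lowest of its group, with a median of -0.24 relative to the group mean.

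In exposed cells, day 5 against day 1, all 32 were called lower, against 25.2% of all genes, and 0 higher, against 25.6%, with a median of -1.87, against 0.0048 over all genes. The mitochondrial share of counts was 0.969% ± 0.201 in exposed day 5 cells, against 2.28% ± 0.377 in exposed day 1 cells (SD, n = 4 each), and its part was not tested. This comparison shares the exposed libraries with the day 5 and day 1 effects. Kif23 fell the most (-2.34 ± 0.23), followed by Cdc20 (-2.24 ± 0.198) and Kif20a (-2.22 ± 0.24), and Cdk1 the least (-1.28 ± 0.204). Without scaling beyond library totals, genes called lower made up 59.9% of all called genes in this comparison, against 49.6% with scaling, and the median over all genes moved to -0.0997. The members were all called lower with either.

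Levels between genes can be compared per length of transcript, here as CPM per kilobase of merged exons in GENCODE M21. In exposed day 5 cells Mki67 stood first with 17.9 ± 5.26, followed by Cdk1 with 10.3 ± 4.32 and Top2a with 10.1 ± 4.32, and Cdc25c with 0.785 ± 0.359 and Cenpf with 0.772 ± 0.308 stood last (SD, n = 4). In uninfected day 5 cells Top2a stood first with 43.0 ± 4.49, followed by Mki67 with 40.8 ± 8.20, which did not differ beyond their spread. Ube2c (28.8 ± 4.92), Cdk1 (28.7 ± 0.503) and Ccnb1 (28.7 ± 1.86) came next and could not be told apart, and Cdc25c was last with 2.88 ± 0.272. The level per kilobase in uninfected day 5 cells bore almost no relation to the log2 fold change at day 5 (Pearson's r = -0.0174, Spearman's rho = -0.0999 over 32 genes).

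The same direction was seen in most of the mitotic genes outside the list. The counts of the pathway lists at day 5 stand against 28.4% of all genes called lower and 28.6% called higher. Of 28 further genes for spindle motors, microtubule proteins and cytokinesis, 27 were lower at day 5 and 1 higher, with a median log2 fold change of -1.89. Kpna2, an importin that controls spindle factors, fell by 1.78 ± 0.12, Dlgap5, a spindle assembly factor, by 2.05 ± 0.17, Ckap5, a microtubule polymerase, by 0.81 ± 0.08 and Plk4, the kinase that starts centriole duplication, by 1.36 ± 0.14. Of 30 kinetochore, centromere and checkpoint genes 29 were lower and 0 higher (median -1.58), among them Bub3, a checkpoint protein (-0.97 ± 0.08), Cenpn, a reader of centromeric chromatin (-1.83 ± 0.17), Mad1l1, a checkpoint protein (-1.15 ± 0.11), and Cdca8, borealin of the passenger complex (-1.92 ± 0.18). Zwint, a kinetochore protein, had a value of 0.04 ± 0.08 and was not called (adjusted p = 0.684). Of 15 genes around CDK1 activity 14 were lower and 0 higher (median -1.43), among them Cdc25b (-1.73 ± 0.13), a phosphatase that activates CDK1, Melk, a mitotic kinase (-2.31 ± 0.22), Gtse1, a microtubule-bound protein (-1.75 ± 0.18), and Cdca3 (-2.13 ± 0.23). Of 16 genes for condensin, cohesin and separase 14 were lower and 0 higher (median -1.61), among them the condensin subunit Smc4 (-1.098 ± 0.096), the cohesin subunit Smc1a (-1.06 ± 0.09), sororin, encoded by Cdca5 (-2.002 ± 0.17), and Ncapg2 of condensin II (-1.92 ± 0.16).

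The exception among spindle genes was Ckap2l, a spindle pole protein, which rose. It had 79.04, 59.5, 88.8 and 75.3 CPM in exposed day 5 replicates 1 to 4, against 48.9, 48.97, 43.95 and 39.5 CPM in uninfected day 5 cells (0.74 ± 0.11, adjusted p = 1.26e-05), with no overlap. At day 1 it was not called (-0.099 ± 0.11, adjusted p = 0.555). In the GENCODE M21 annotation Ckap2l lies just downstream of Il1a, the gene of interleukin-1 alpha, on the same strand, 2398 bases away. Il1a, examined after the Ckap2l values were seen, had 1610.0, 4387, 1488 and 4081 CPM in exposed day 5 libraries, against 129, 131, 129 and 129 CPM in uninfected ones, and the part of reads from Il1a in the Ckap2l count was not tested. Among exposed day 5 replicates the 2 genes did not share an order, with Il1a highest in replicates 2 and 4 and Ckap2l highest in replicates 3 and 1. Among exposed day 1 replicates they did, with replicate 4 highest, then 3, 1 and 2. There Il1a had 257, 242, 296 and 336 CPM in replicates 1 to 4, and Ckap2l had 48.9, 48.3, 54.95 and 64.01 CPM. Pttg1, securin, the inhibitor of separase, rose at day 1, with 71.96, 66.1, 55.8 and 73.1 CPM in exposed day 1 libraries, against 34.97, 34.6, 38.1 and 33.7 CPM in uninfected ones (0.92 ± 0.096, adjusted p = 1.15e-06), and was not called at day 5 (-0.17 ± 0.096, adjusted p = 0.135).

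The lists of ubiquitination and of transcriptional control had medians nearer to 0. Of 17 genes of the anaphase-promoting complex 8 were lower and 2 higher at day 5, with a median of -0.18, against 28.4% and 28.6% of all genes. Fbxo5, the inhibitor EMI1 that holds the complex off until mitosis, fell by 2.07 ± 0.26 and Anapc15 by 0.95 ± 0.11, while Fzr1, the activator CDH1 of late mitosis and G1, fell by 0.53 ± 0.06, Anapc2 by 0.44 ± 0.06, and the subunits Anapc7 and Cdc26 rose by 0.26 ± 0.08 and 0.33 ± 0.11 on the log2 scale. Of 12 genes of the MuvB and DREAM complexes 8 were lower and 1 higher (median -0.56), and Lin54 was not analysed here. Rbl1, the pocket protein p107, fell by 1.96 ± 0.12, the E2F partner Tfdp1 fell by 1.01 ± 0.09, the E2F partner Tfdp2 fell by 1.395 ± 0.12 and the MuvB subunit Lin9 fell by 0.602 ± 0.08, while E2f5, a repressor E2F, rose by 0.73 ± 0.12 and E2f4 was not called (-0.07 ± 0.07, adjusted p = 0.414). All 25 genes listed for G1/S and replication were lower (median -1.82), among them Fen1 (-2.06 ± 0.13), the flap endonuclease, Slbp, the histone mRNA binder (-1.18 ± 0.09), Ccne1, cyclin E1 (-1.44 ± 0.11), and the licensing factor Cdt1 (-1.36 ± 0.12).

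Among 11 genes tied to leaving the cycle, 5 were lower and 3 higher at day 5 (median -0.15), against 28.4% and 28.6% of all genes. The inhibitors Cdkn2c, which encodes p18, and Cdkn2a fell by 2.18 ± 0.16 and 1.78 ± 0.14, Btg2, an antiproliferative protein, by 1.09 ± 0.09 and Cdkn2d, p19, by 0.98 ± 0.11. Cdkn1c, p57, rose by 0.98 ± 0.28 with means below 1 CPM and Btg1, an antiproliferative protein, by 0.75 ± 0.14, and Cdkn1b, p27, was not called (-0.15 ± 0.08, adjusted p = 0.132). Of the 154 genes of the 8 lists, 130 were lower and 7 higher at day 5, against 28.4% and 28.6% of all genes, and 52 were lower and 3 higher at day 1, against 10.5% and 13.4%.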

How the data were processed

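Polyadenylated RNA of MPI-2 cells was extracted on a Maxwell RSC instrument and sequenced at a service provider, per the labels' protocols. The authors deposited unnormalised counts for each gene and library, taken on the reverse strand per the file names. STAR and GRCm39 are named in the submitters' processing notes, with no role, version or annotation release. Strand-aware counts separate members from genes on the opposite strand that overlap them, such as Elovl1 for Cdc20, and pseudogenes named for Ccnb1 and Ccnb2 could share reads with them.

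The labels gave the groups. From 55359 genes, filterByExpr kept 17190. All 16 libraries entered 1 robust quasi-likelihood model in edgeR 4.0.16 under R 4.3.3, with a mean per group and scaling by trimmed mean of M values. Two-sided p-values were adjusted (Benjamini-Hochberg) over every gene tested, with calls at 0.05. Each gene has 1 dispersion for all groups, on which its standard error rests. That error was derived as the absolute log2 fold change over the square root of the F statistic, since edgeR's test gives none. Log2 CPM used a prior count of 2. Symbols came from GENCODE M21 by identifier (52083 genes), and exon lengths from the same release, which rests on an older assembly. Replicate libraries of a group differed beyond counting noise (chi-square per degree of freedom at least 5.59).

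The members and lists were chosen with earlier results of these data known. The 8 pathway lists hold 154 genes. Values in each library of the relevant comparison are given for members at the ends of the rankings by day 5 fall, day 1 fall, interaction and spread, and for Mki67, Top2a, Cdk1, Ccnb1 and Foxm1. From each pathway list up to 4 genes with the smallest p and up to 2 called against the list's direction are named, with a fixed few. Zwint, Pttg1 and Il1a were named after values were seen. Alternatives were DESeq2 1.42.0, other scalings and filters, fits to the libraries of a comparison, the replicate block and libraries left out. The scripts were tested on simulated data.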

Additional observations from a re-analysis of the deposited data

Results flagged for a closer look

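All 32 genes differed between the days in their response to exposure, by the interaction term of edgeR's model (day 5 effect minus day 1 effect, on the log2 scale), and every difference was below 0. Among regulators of mitotic entry it was -2.02 for Ccnb2, -1.71 for Cdc25c, -1.63 for Ccnb1, -1.56 for Ccna2, -1.36 for Plk1, -1.34 for Foxm1 and -1.197 for Cdk1. Among spindle kinases and assembly factors it was -1.61 for Hmmr, -1.53 for Aurka, -1.49 for Nusap1, -1.48 for Kif11, -1.43 for Kif2c and -1.25 for Tpx2. Among genes of the checkpoint, kinetochore and centromere it was -1.98 for Birc5, -1.81 for Aurkb, -1.73 for Nuf2, -1.66 for Cenpa, -1.58 for Bub1, -1.58 for Ndc80, -1.301 for Cenpf, -1.23 for Ttk, -1.15 for Bub1b and -1.03 for Cenpe. Of the genes of mitotic exit it was -1.801 for Cdc20 and -1.55 for Ube2c. Among genes of the central spindle and cytokinesis it was -1.87 for Kif20a, -1.87 for Kif23, -1.84 for Anln, -1.67 for Racgap1 and -1.37 for Prc1. For the structural genes of chromosomes it was -1.43 for Top2a and -0.67 for Mki67.

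In 3 of the 128 combinations of gene and group, 1 library stood apart from the other 3 of its group by Dixon's criterion, which chance alone meets in about 5% of groups. Kif20a had 61.6 CPM in exposed day 1 replicate 4, against 73.0 to 74.7 CPM in the other libraries of that group. Ccna2 had 84.9 CPM in uninfected day 5 replicate 4, against 114 to 118 CPM in the others. Cdk1 had 138 CPM in uninfected day 5 replicate 2, against 142 to 143 CPM in the others.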

How the results depend on the processing

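The day 5 effect held under every alternative run for it: 32 of 32 genes were called lower in each fit, with medians between -2.33 and -1.89, and so did the lower level of exposed cells at day 5 against day 1 (medians between -2.09 and -1.71). The number of members lower at day 1 (13) was 24 with DESeq2 (against 14.4% of all genes), 20 with RLE size factors (12.6%), 7 without scaling (12.1%), 5 without a filter (5.35%), 29 in the fit to the day 1 libraries alone (21.3%), 0 in replicates 1 and 2 alone (2.33%) and 0 in replicates 3 and 4 alone (0.914%), and between 2 and 26 with 1 library left out (6.93% to 14.5%). The number lower in uninfected cells at day 5 against day 1 (2) was 7 with DESeq2 (11.6%), 27 in the fit to those libraries alone (19.3%), 5 with the replicate block (8.34%), 4 with exposed day 5 replicates 2 and 3 left out (14%), 0 in replicates 1 and 2 alone (1.07%), 1 in replicates 3 and 4 alone (1.14%), and between 1 and 12 with 1 library left out (4.99% to 12.7%). The interaction count (32) was 18 in replicates 1 and 2 alone (9.6%), and 31 or 32 with 1 library left out (16.8% to 22.4%). The causes of these differences were not tested. Each subset also held fewer libraries than the full fit. The spread among exposed day 5 libraries (0.628) was 0.721 without scaling and between 0.509 and 0.702 with 1 library left out. Of single genes, the day 1 value of Ccnb2 changed sign, to 0.010 in replicates 1 and 2 alone. With 1 library left out it lay between -0.085 and 0.031, above 0 when exposed day 1 replicate 4 (0.031) or uninfected day 1 replicate 2 (0.0055) was absent. Of 832 day 1 values of single genes under the alternatives, 627 kept their direction and call, 123 lost the call and 79 gained it, and all 832 day 5 values kept both. For the interaction 767 of 800 values kept both and 33 lost the call.

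Same-numbered replicates did not deviate together (correlations between -0.151 and 0.148, over 0.1 in 3 of 24 pairs, with 3 of 16 libraries closest to their own number), so the replicate block is only an alternative. It gave 19 members lower at day 1, against 10.1% of all genes. The fit to the libraries of a comparison could not be run for the interaction, which needs all 16.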
